A study of Homo sapiens with 9 samples.

Results

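The 9 genes described here serve antigen presentation by the major histocompatibility complex (MHC) class I pathway. They are the heavy chain genes *HLA-B*, *HLA-C* and *HLA-E*, the light chain gene *B2M*, the peptide transporter genes *TAP1* and *TAP2*, the inducible proteasome subunit genes *PSMB8* and *PSMB9*, and *NLRC5*, which encodes a coactivator of class I transcription. They were taken by symbol for their role, by a rule that uses no measured value although earlier results of these data were known, and are 9 of the 59452 rows of the gene table. All 9 passed the filter on low counts, which left 15528 genes to test.

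The values come from MDA-MB-453, an established human breast cancer cell line of wild-type genotype, with 3 libraries of bulk RNA sequencing per condition, all taken at 48 hours. Attached cells received vehicle (DMSO), suspended cells on plates coated with poly-HEMA received the same vehicle, and further suspended cells received 10 µmol/L AT-0174, an inhibitor of the tryptophan-degrading enzymes TDO2 and IDO1. No attached cells with AT-0174 are analysed here, so suspended AT-0174 cells differ from attached vehicle cells in culture and in drug, and those 2 factors cannot be told apart in that comparison. The 3 comparisons share libraries pairwise, so their results are not independent of each other.

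Class I molecules show peptides from inside the cell to CD8+ T cells, and HLA-E is also read by natural killer cells. Proteasomes cut proteins into peptides, the TAP1–TAP2 pump moves them into the endoplasmic reticulum, and there they are loaded onto a heavy chain paired with β2-microglobulin. Interferons raise the whole pathway through factors such as IRF1 and NLRC5, and exchange the standard proteasome subunits for PSMB8 and PSMB9.

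Of the 9 members, 7 matched the RefSeq promoter table (GRCh38.p14), and *HLA-E* and *NLRC5* did not. In 5 of the 7 windows a match to an interferon-stimulated response element (ISRE) or a κB site was found, and these 5 are shown because the levels of interferon-induced genes enter the results below. The windows of *PSMB8* and *PSMB9* held neither. Each sequence is the 250 bases before the RefSeq start, on the gene's own strand, and capitals mark the ISRE and κB matches. The windows lie at chr6:31357180-31357429 (*HLA-B*, minus strand), chr6:31272093-31272342 (*HLA-C*, minus), chr15:44711267-44711516 (*B2M*, plus), chr6:32853705-32853954 (*TAP1*, minus) and chr6:32838740-32838989 (*TAP2*, minus). The RefSeq starts of *HLA-B*, *HLA-C*, *B2M* and *TAP1* lie inside the GENCODE genes, so the whole window of *HLA-B* and part of each of the other 3 are within the gene in that annotation.
HLA-B: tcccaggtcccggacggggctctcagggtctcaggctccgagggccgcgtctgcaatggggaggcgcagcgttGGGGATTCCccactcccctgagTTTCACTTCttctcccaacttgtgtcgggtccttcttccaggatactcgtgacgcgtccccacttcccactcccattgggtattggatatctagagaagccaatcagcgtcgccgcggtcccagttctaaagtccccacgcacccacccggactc
HLA-C: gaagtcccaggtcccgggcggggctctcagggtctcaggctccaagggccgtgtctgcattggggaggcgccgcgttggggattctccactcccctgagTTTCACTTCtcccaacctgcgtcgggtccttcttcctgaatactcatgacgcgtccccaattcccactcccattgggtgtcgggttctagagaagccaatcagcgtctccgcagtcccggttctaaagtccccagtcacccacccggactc
B2M: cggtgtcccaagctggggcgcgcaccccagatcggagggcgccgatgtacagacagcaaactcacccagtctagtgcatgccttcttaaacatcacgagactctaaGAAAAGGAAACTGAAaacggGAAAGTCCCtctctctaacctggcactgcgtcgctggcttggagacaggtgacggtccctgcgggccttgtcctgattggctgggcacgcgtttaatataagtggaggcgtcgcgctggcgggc
TAP1: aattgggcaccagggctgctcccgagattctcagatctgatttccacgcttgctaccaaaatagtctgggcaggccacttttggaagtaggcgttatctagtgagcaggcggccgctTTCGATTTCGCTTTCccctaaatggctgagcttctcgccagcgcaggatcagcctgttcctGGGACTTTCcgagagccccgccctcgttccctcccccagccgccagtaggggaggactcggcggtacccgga
TAP2: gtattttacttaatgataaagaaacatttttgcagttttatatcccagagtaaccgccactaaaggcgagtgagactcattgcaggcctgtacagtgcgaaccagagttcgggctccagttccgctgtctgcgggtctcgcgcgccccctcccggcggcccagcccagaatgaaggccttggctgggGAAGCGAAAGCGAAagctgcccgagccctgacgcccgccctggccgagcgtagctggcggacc

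The ISRE was searched on both strands as GAAANNGAA and as GAANNGAAA. The first set of letters stood in 7.06% of 27305 promoter windows of the same length and in those of *B2M*, *TAP1* and *TAP2*, and the second in 6.77% and in those of *HLA-B*, *HLA-C* and *TAP2*. In *B2M* a pair of overlapping matches ran from -144 to -136 and from -138 to -130, counted from the start, and in *TAP1* a like pair on the opposite strand ran from -133 to -125 and from -127 to -119. The κB letters GGGACTTTC, found in 0.315% of windows, stood in *B2M* and *TAP1*, and GGGGATTCC, found in 0.249%, in *HLA-B*. A GAS site, an element of interferon-γ responses, was searched as TTCNNNGAA and stood in 6.78% of windows and in none of the 7. The Y-box letters CCAAT stood in 33% of windows and in 5 of the 7, and the letters TGACG of an X-box or CRE in 21.7% and in 6. The letters were chosen with the sequences known, and a match is a description of a window, not a bound site. *TAP1* and *PSMB9* start 488 bases apart on opposite strands, and their windows overlap in part. The marked matches of *TAP1* lie between these starts but outside the window of *PSMB9*.

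In the annotation (GRCh38, GENCODE release 44), 7 of the members lie on the short arm of chromosome 6, from *HLA-E* (chr6:30489509-30494194, plus strand) through *HLA-C* (chr6:31268749-31272130, minus) and *HLA-B* (chr6:31353872-31367067, minus) to the group of *TAP2* (chr6:32821833-32838739, minus), *PSMB8* (chr6:32840717-32844679, minus), *TAP1* (chr6:32845209-32853816, minus) and *PSMB9* (chr6:32844136-32859851, plus). *B2M* lies at chr15:44711358-44718851 (plus) and *NLRC5* at chr16:56989485-57083531 (plus). All 9 are protein-coding. *PSMB9* overlaps *PSMB8*, *TAP1* and the antisense gene *PSMB8-AS1*, and *TAP2* lies within the readthrough gene ENSG00000250264 on the same strand. How strand entered the counting is not given in the sources used here.

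The libraries held 36649997 to 48019126 estimated counts, with group medians of 38658156 in attached, 42970982 in suspended vehicle and 44064734 in suspended AT-0174 cells. Levels are given as CPM, the counts scaled to a common library size, and where no read was counted the limit is 3 counts, equal to 0.0625 to 0.0819 CPM, for counting error only. The luminal markers *KRT8*, *KRT18*, *EPCAM*, *FOXA1*, *GATA3* and *SPDEF* were expressed in every library. Of the receptors that the triple-negative label says are missing, *ESR1* had at most 4 counts and *PGR* 5 to 18, whereas *ERBB2* stood at 1029 to 1082 CPM. The leukocyte markers had at most 6 counts and the endothelial markers at most 13. Of the fibroblast markers, 4 had at most 8 counts, and *COL1A1* stood at 107 to 149 CPM. Mitochondrial transcripts held 7.56% to 9.32% of counts in attached, 4.05% to 4.34% in suspended vehicle and 3.73% to 5.51% in suspended AT-0174 libraries, so this share moved with attachment, and its part in the results was not tested.

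Scaled for transcript length (TPM), the members spanned a wide range of levels. In attached cells *B2M* stood at 517 ± 20.4 TPM (SD, n = 3) and *HLA-C* at 299 ± 12.7 TPM, above 99.6% and 99.3% of the rows of the table. *HLA-E* followed at 35.1 ± 1.25 TPM and *TAP2* at 30 ± 2.88 TPM, then *TAP1* at 11 ± 0.661, *PSMB8* at 9.66 ± 0.566 and *HLA-B* at 8.85 ± 1.19 TPM. *NLRC5* and *PSMB9* were lowest, at 1.68 ± 0.782 and 1.65 ± 0.295 TPM. The mean ± SD ranges of neighbors in this order overlapped for *PSMB8* and *HLA-B* and for *NLRC5* and *PSMB9*. Most of the TPM of *TAP2* (20.3 of its 30 in attached cells) came from a retained-intron transcript of 274 bases with 8.38% of the gene's reads, so its place in the order rests on that short transcript.

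**Figure D1:**
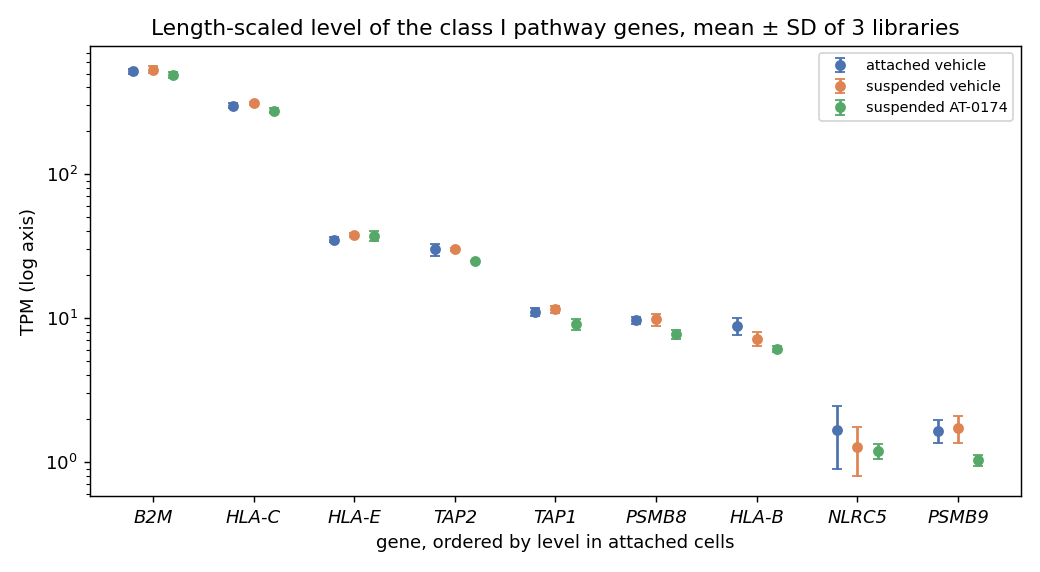
Mean TPM (log axis) of each gene in the 3 conditions, with bars of 1 SD over 3 libraries, and genes ordered by their level in attached cells. *B2M* and *HLA-C* stand near 500 and 300 TPM, and *NLRC5* and *PSMB9* below 2 TPM.

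Without drug, the libraries of suspended and attached cells overlapped for most members. Of the 9 members, 1 fell past an adjusted p of 0.05 (edgeR, Benjamini–Hochberg over all 15528 genes) and 0 rose, where 10.8% of all genes tested fell and 10.4% rose. The gene was *HLA-B*, also the 1 member whose groups did not overlap, where 18.7% of all genes were lower without overlap. Their median log2 fold change was -0.06, against 0.00 over all genes.

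With AT-0174 in suspension, all 9 members had a lower fitted level than with vehicle, and 0 passed the adjusted threshold, where 0.258% of all genes fell and 0.522% rose. The median log2 fold change was -0.23, against 0.00 over all genes. At an unadjusted p under 0.05, 7 of the 9 were lower, where 4.46% of all genes were. In 5 of the 9 (*HLA-C*, *TAP1*, *PSMB8*, *PSMB9* and *NLRC5*) every AT-0174 library lay below every vehicle library, where 7.66% of all genes did. By limma-voom 0 of the 9 passed and by DESeq2 1, *HLA-C*.

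Between suspended AT-0174 and attached vehicle cells, 7 of the 9 fell (all but *HLA-E* and *TAP2*) and 0 rose, where 11.8% of all genes fell and 12.2% rose. In the same 7 the groups did not overlap, where 19.1% of all genes were lower without overlap. The median log2 fold change of the members was -0.31, against 0.00 over all genes. In bulk RNA, fewer expressing cells and less RNA per cell cannot be told apart.

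**Figure D2:**
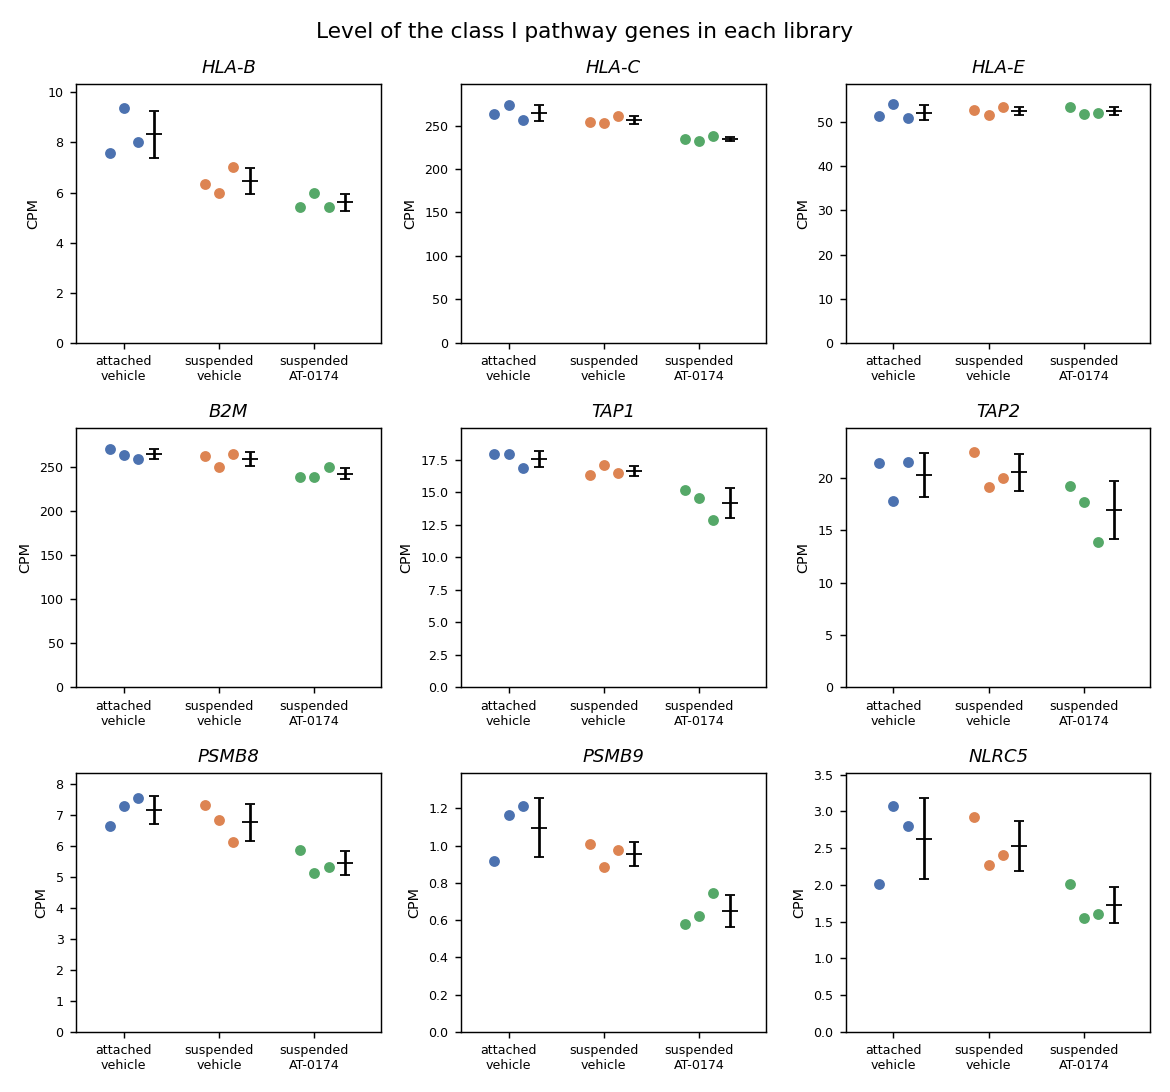
CPM of each gene in each library, with 3 points per condition and the mean ± SD beside them, on axes that start at 0. The AT-0174 points lie below all other points for *HLA-C*, *TAP1*, *PSMB8*, *PSMB9* and *NLRC5*, and level with them for *HLA-E*.

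*HLA-B*, which encodes a classical heavy chain, stood at 7.58, 9.38 and 8.03 CPM in the attached libraries, at 6.36, 5.98 and 7.03 CPM in suspended vehicle and at 5.4, 6 and 5.44 CPM in suspended AT-0174. Each suspended library lay below each attached library, and the 2 suspended groups touched. The fall in suspension was -0.37 on the log2 scale (SE 0.0997, adjusted p = 0.0217, edgeR), and the fall of AT-0174 against attached cells was -0.57 (SE 0.1, adjusted p = 0.00186). AT-0174 against suspended vehicle gave -0.20 (SE 0.101, adjusted p = 0.593). The first of these calls was lost without attached replicate 2 (log2 fold change -0.27, adjusted p = 0.0816), without suspended vehicle replicate 1 (-0.35, 0.0611) or replicate 2 (-0.31, 0.0928), and with the protein-coding transcripts alone (-0.29, 0.0518).

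*HLA-C*, the most abundant heavy chain here, stood at 263, 274 and 257 CPM attached, at 254, 253 and 261 CPM in suspended vehicle and at 234, 232 and 237 CPM in suspended AT-0174. The first 2 groups overlapped, and the AT-0174 libraries lay below all 6 others. The log2 fold change was -0.05 (SE 0.0316, adjusted p = 0.329) in suspension, -0.13 (SE 0.0316, unadjusted p = 0.00155, adjusted p = 0.117) for AT-0174 against suspended vehicle and -0.17 (SE 0.0316, adjusted p = 0.00224) against attached cells. DESeq2 gave an adjusted p of 0.0167 for AT-0174 against suspended vehicle, and the adjusted p over the alternatives ran from 0.0167 to 0.398.

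*HLA-E*, a heavy chain of little polymorphism that binds leader peptides of other class I chains, stood at 51.3, 54.2 and 51.1 CPM attached, at 52.8, 51.6 and 53.5 CPM in suspended vehicle and at 53.5, 51.8 and 52.1 CPM in suspended AT-0174. All groups overlapped. Its log2 fold changes were 0.01, 0.00 and 0.01 in the 3 comparisons, each with an SE of 0.0379 or less, and their sign turned under some of the alternatives.

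Reads of class I genes were assigned to reference transcripts, and the alleles of the cell line were not used, so reads can be lost or shared between near-identical class I genes and the level of a single heavy chain is uncertain. The summed counts of 11 class I genes and pseudogenes, *HLA-B*, *HLA-C* and *HLA-E* included, changed by -0.05 (SE 0.0317, adjusted p = 0.327) in suspension, by -0.11 (SE 0.0317, adjusted p = 0.226) for AT-0174 against suspended vehicle and by -0.15 (SE 0.0317, adjusted p = 0.00463) against attached cells. Of the other 8 genes of that sum, only *HLA-F* and *HLA-H* passed the filter, with *HLA-F* at 18 to 36 counts and *HLA-H* at 5.73 to 18.1 estimated counts per library, and neither passed the test in any comparison.

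*B2M*, the invariant light chain, stood at 270, 263 and 259 CPM attached, at 262, 249 and 264 CPM in suspended vehicle and at 239, 238 and 250 CPM in suspended AT-0174. The 2 suspended groups overlapped by a narrow margin, and AT-0174 libraries lay below all attached libraries. Its log2 fold change was -0.03 (SE 0.0336, adjusted p = 0.545) in suspension, -0.09 (SE 0.0336, adjusted p = 0.371) for AT-0174 against suspended vehicle and -0.13 (SE 0.0336, adjusted p = 0.0176) against attached cells. That call was lost without attached replicate 1, AT-0174 replicate 1 or AT-0174 replicate 2, with adjusted p of 0.0693, 0.0722 and 0.061 and log2 fold changes of -0.11, -0.11 and -0.11.

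*TAP1*, a subunit of the peptide pump, stood at 17.9, 18 and 16.9 CPM attached, at 16.4, 17.1 and 16.5 CPM in suspended vehicle and at 15.2, 14.5 and 12.9 CPM in suspended AT-0174. The first 2 groups overlapped, and AT-0174 libraries lay below all 6 others. The log2 fold change was -0.08 (SE 0.0629, adjusted p = 0.416) in suspension, -0.23 (SE 0.0631, adjusted p = 0.17) for AT-0174 against suspended vehicle and -0.31 (SE 0.0634, adjusted p = 0.00449) against attached cells. The last call held in each of the 6 refits without 1 library.

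*TAP2*, the partner subunit, stood at 21.4, 17.8 and 21.6 CPM attached, at 22.5, 19.1 and 20 CPM in suspended vehicle and at 19.2, 17.7 and 13.9 CPM in suspended AT-0174. All groups overlapped, and AT-0174 replicate 3 was the lowest of the 9 libraries. Its log2 fold change was 0.02 (SE 0.109, adjusted p = 0.939) in suspension, -0.28 (SE 0.109, adjusted p = 0.444) for AT-0174 against suspended vehicle and -0.26 (SE 0.11, adjusted p = 0.106) against attached cells.

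The readthrough gene that contains *TAP2* took 7.42, 9.85 and 5.61 CPM in attached, 4.03, 8.86 and 7.12 CPM in suspended vehicle and 7.54, 5.64 and 12 CPM in suspended AT-0174 libraries. It was highest in AT-0174 replicate 3, where *TAP2* was lowest, and lowest in suspended vehicle replicate 1, where *TAP2* was highest. Summed, the pair stood at 28.9, 27.7 and 27.2 CPM, at 26.5, 28 and 27.2 CPM, and at 26.8, 23.3 and 25.9 CPM. On the sum, which was chosen after the data were seen, the log2 fold change was -0.04 (SE 0.0537, adjusted p = 0.682) in suspension, -0.10 (SE 0.0534, adjusted p = 0.611) for AT-0174 against suspended vehicle and -0.14 (SE 0.0538, adjusted p = 0.0785) against attached cells. The values of *TAP2* alone therefore depend on how reads were divided between the pair.

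**Figure D3:**
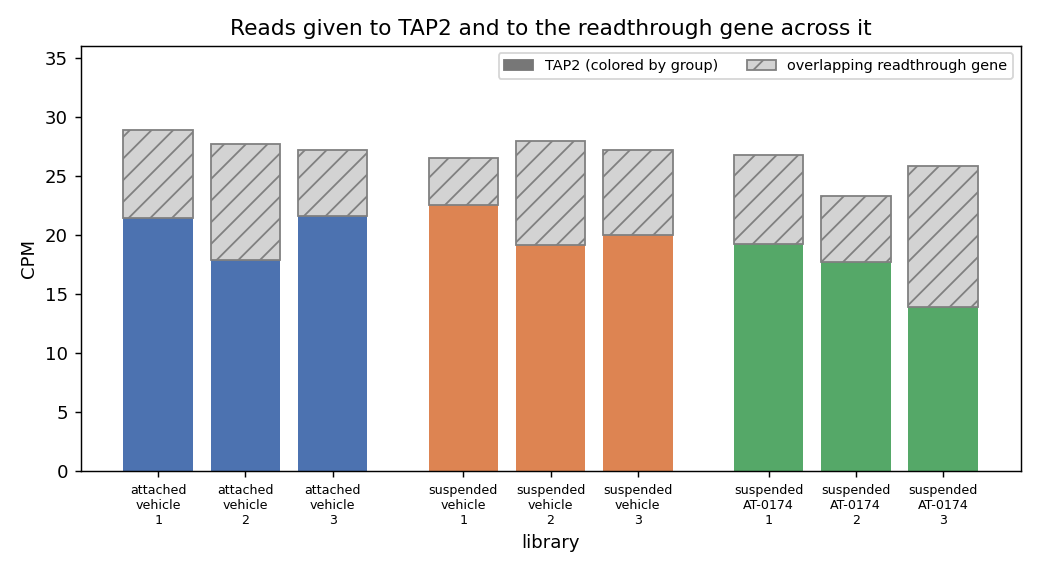
Stacked bars of the CPM given to *TAP2* (colored by condition) and to the overlapping readthrough gene (hatched) in each of the 9 libraries. The total ranges from 23.3 to 28.9 CPM, and the split varies between libraries of the same condition.

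*PSMB8*, an inducible catalytic subunit that takes the place of PSMB5, stood at 6.67, 7.3 and 7.54 CPM attached, at 7.34, 6.85 and 6.15 CPM in suspended vehicle and at 5.88, 5.14 and 5.33 CPM in suspended AT-0174. The first 2 groups overlapped, and AT-0174 libraries lay below all 6 others. The log2 fold change was -0.08 (SE 0.0948, adjusted p = 0.581) in suspension, -0.31 (SE 0.0955, adjusted p = 0.244) for AT-0174 against suspended vehicle and -0.40 (SE 0.0959, adjusted p = 0.0107) against attached cells, and the last call held in all 6 refits without 1 library.

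*PSMB9*, which takes the place of PSMB6, stood at 0.915, 1.16 and 1.21 CPM attached, at 1.01, 0.884 and 0.979 CPM in suspended vehicle and at 0.58, 0.621 and 0.748 CPM in suspended AT-0174. Again the AT-0174 libraries were the lowest. Its log2 fold change was -0.20 (SE 0.216, adjusted p = 0.568) in suspension, -0.56 (SE 0.223, adjusted p = 0.457) for AT-0174 against suspended vehicle and -0.75 (SE 0.223, adjusted p = 0.0279) against attached cells, the largest of any member. At this low count the last call was lost without attached replicate 2 or 3 or AT-0174 replicate 1 or 2, with adjusted p of 0.0709, 0.0993, 0.11 and 0.0777. The antisense *PSMB8-AS1* had 1 to 9 estimated counts per library and was not tested.

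Among the standard subunits, *PSMB5* rose in suspension by 0.17 on the log2 scale (SE 0.0436, adjusted p = 0.0153) and *PSMB6* by 0.12 (SE 0.032, adjusted p = 0.022), both in vehicle, and *PSMB7* and *PSME3* did not pass, at 0.04 (adjusted p = 0.411) and 0.10 (adjusted p = 0.0562). All 4 of the standard counterparts listed (*PSMB5*, *PSMB6*, *PSMB7* and the activator *PSME3*) rose between attached vehicle and suspended AT-0174 cells, by 0.14 for *PSMB5* (adjusted p = 0.0358), 0.15 for *PSMB6* (0.00477), 0.10 for *PSMB7* (0.0427) and 0.12 for *PSME3* (0.0165), while 0 of the 4 passed for AT-0174 against suspended vehicle. Of all genes, 10.4% rose in suspension, 12.2% for AT-0174 against attached vehicle and 0.522% for AT-0174 against suspended vehicle. Over the 6 refits without 1 library, the calls in suspension held in 5 for *PSMB5* and 4 for *PSMB6*, and those of AT-0174 against attached cells in 2 for *PSMB5* (lowest log2 fold change 0.08), 6 for *PSMB6*, 0 for *PSMB7* and 3 for *PSME3*. *PSMB10*, the inducible subunit encoded outside the *TAP* cluster, stood at 9.3 to 10.8 CPM, with log2 fold changes of 0.02 (SE 0.0818), 0.03 (SE 0.0806) and 0.05 (SE 0.0814). Among its partners, the interferon-inducible activator *PSME2* fell by 0.19 on the log2 scale between attached vehicle and suspended AT-0174 cells (SE 0.0414, adjusted p = 0.00597), and the assembly factor *POMP* rose by 0.22 in suspension (SE 0.0485, adjusted p = 0.00813) and by 0.31 between attached vehicle and suspended AT-0174 cells (SE 0.0483, adjusted p = 0.000937).

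*NLRC5*, the coactivator of class I genes, stood at 2.01, 3.07 and 2.81 CPM attached, at 2.92, 2.27 and 2.41 CPM in suspended vehicle and at 2.01, 1.55 and 1.61 CPM in suspended AT-0174. AT-0174 libraries lay below all 6 others, although AT-0174 replicate 1 and attached replicate 1 both round to 2.01 CPM. The log2 fold change was -0.06 (SE 0.186, adjusted p = 0.863) in suspension, -0.55 (SE 0.189, adjusted p = 0.334) for AT-0174 against suspended vehicle and -0.60 (SE 0.19, adjusted p = 0.0358) against attached cells. The last call was lost without attached replicate 2 (-0.48, adjusted p = 0.124), attached replicate 3 (-0.55, 0.112), AT-0174 replicate 2 (-0.54, 0.103) or AT-0174 replicate 3 (-0.56, 0.102), and with counts rebuilt from TPM AT-0174 against suspended vehicle gave -0.06 (SE 0.374). Between 50.2% and 95.3% of its reads per library lay on protein-coding transcripts.

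**Figure D4:**
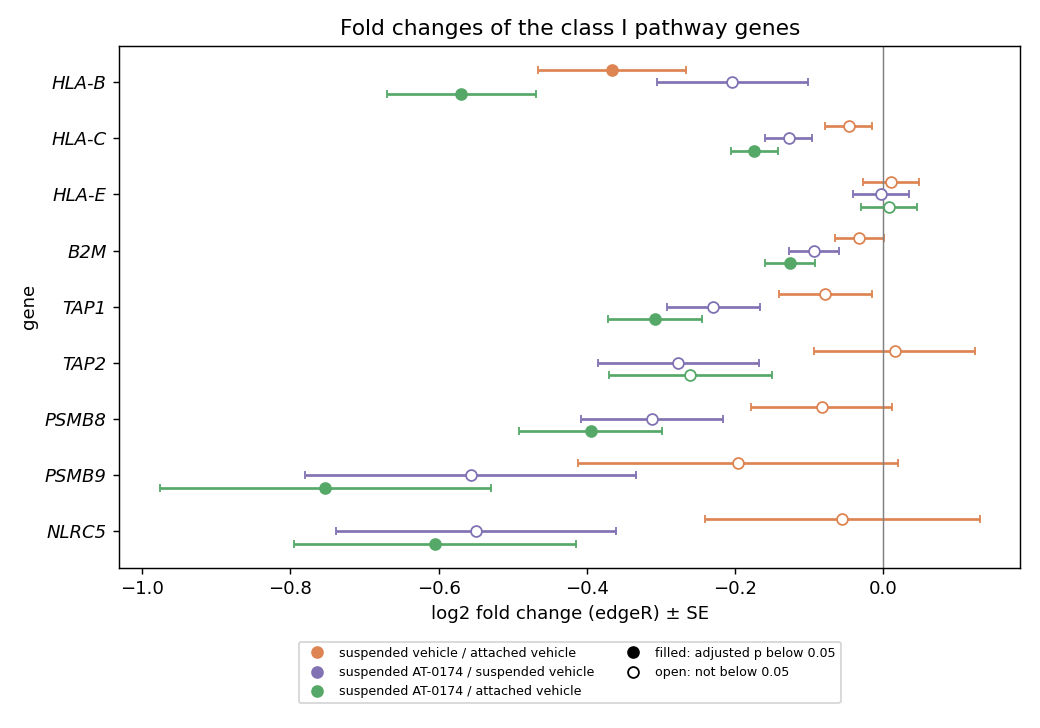
Log2 fold change ± SE of each gene in the 3 comparisons (edgeR), with filled points at an adjusted p below 0.05. All AT-0174 against suspended vehicle points are open and at or below 0, and 7 of the 9 AT-0174 against attached vehicle points are filled.

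Genes that load and trim class I peptides differed in direction. Of 11 tested, 1 rose and 0 fell in suspension (median log2 fold change -0.04), 0 passed for AT-0174 against suspended vehicle, with a median of 0.00, and 1 rose and 2 fell between attached vehicle and suspended AT-0174 cells, with a median of -0.03. Over all genes, 10.4% rose and 10.8% fell in suspension. For AT-0174, 0.522% rose and 0.258% fell against suspended vehicle, and 12.2% rose and 11.8% fell against attached vehicle. The counts of this list were not tested against those shares. *TAPBP*, or tapasin, which bridges the pump and the heavy chain, fell by 0.15 on the log2 scale in the last comparison (SE 0.042, adjusted p = 0.0206), a call that held in 2 of the 6 refits without 1 library. The trimming peptidase *ERAP2* fell by 0.52 there (SE 0.0884, adjusted p = 0.00147), from 8.14 to 9.88 CPM in attached cells to 6.09 to 6.48 CPM with AT-0174. *LNPEP*, a peptidase of endosomes, rose by 0.19 in suspension (SE 0.0443, adjusted p = 0.0115), and the chaperone *CANX* by 0.10 between attached vehicle and suspended AT-0174 cells (SE 0.0324, adjusted p = 0.043), a call that held in 1 of the 6 refits without 1 library.

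Of 13 factors of the class I enhanceosome and of its repression by chromatin marks, 1 fell and 0 rose in suspension, 0 passed for AT-0174 against suspended vehicle, and 3 fell and 1 rose between attached vehicle and suspended AT-0174 cells, with medians of -0.02, -0.02 and -0.02. Over all genes, 10.8% fell and 10.4% rose in suspension, and 11.8% fell and 12.2% rose between attached vehicle and suspended AT-0174 cells. *RFX5*, which binds the X-box with NLRC5, fell by 0.18 in the last comparison (SE 0.0451, adjusted p = 0.0122), from 150 to 154 CPM attached to 128 to 143 CPM with AT-0174. That call held in 5 of the 6 refits and was lost without AT-0174 replicate 1 (adjusted p = 0.0504). *NFYB*, a subunit of the CCAAT-binding factor, fell by 0.26 in suspension (SE 0.0591, adjusted p = 0.00949) and by 0.20 between attached vehicle and suspended AT-0174 cells (SE 0.0587, adjusted p = 0.0266), where the call held in 2 of the 6 refits without 1 library and the log2 fold change reached -0.13. In the latter comparison its partner *NFYC* rose by 0.16 (SE 0.0437, adjusted p = 0.0203), which held in 3 of the 6 refits, and *EZH2*, a histone methyltransferase that can silence class I genes, fell by 0.12 (SE 0.0363, adjusted p = 0.0268), which held in 1.

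Genes of interferon signaling included larger differences. Of 14 receptor and signaling genes tested, 4 fell and 1 rose in suspension (median log2 fold change -0.12), 0 passed for AT-0174 against suspended vehicle, with a median of -0.04, and 5 fell and 0 rose between attached vehicle and suspended AT-0174 cells, with a median of -0.17. The shares over all genes were 10.8% lower and 10.4% higher in suspension, and 11.8% lower and 12.2% higher for AT-0174 against attached cells. *IRF9*, the DNA-binding part of the type I interferon complex, stood at 15.3, 27.1 and 19.2 CPM attached, at 9.61, 11.4 and 9.79 CPM in suspended vehicle and at 4.16, 7.05 and 6.14 CPM in suspended AT-0174, and the 3 groups did not overlap. It fell by 0.99 on the log2 scale in suspension (adjusted p = 0.00412) and by 1.83 between attached vehicle and suspended AT-0174 cells (adjusted p = 9.2e-05), with -0.84 (adjusted p = 0.121) for AT-0174 against suspended vehicle.

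*IRF1*, which acts on class I and proteasome promoters, stood at 5.36, 6.47 and 5.41 CPM attached, at 3.69, 4.35 and 3.37 CPM in suspended vehicle and at 2.84, 2.29 and 3.33 CPM in suspended AT-0174. Each group lay below the one before it. Its log2 fold change was -0.59 (adjusted p = 0.0141), -0.43 (adjusted p = 0.362) and -1.02 (adjusted p = 0.000666) for suspension, AT-0174 in suspension and AT-0174 against attached cells, and the call in suspension held in 4 of the 6 refits. In suspension *STAT2* fell by 0.24 (adjusted p = 0.00648) and the kinase *TYK2* by 0.26 (adjusted p = 0.00918), and the receptor chain *IFNAR1* rose by 0.13 (adjusted p = 0.046), a call that held in 1 of the 6 refits without 1 library. Between attached vehicle and suspended AT-0174 cells *STAT2* fell by 0.28 (adjusted p = 0.00227) and *TYK2* by 0.28 (adjusted p = 0.00455).

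Interferon-induced genes, as a list of 15 of which 14 were tested, had a median log2 fold change of -0.45 in suspension, -1.10 for AT-0174 against suspended vehicle and -1.63 between attached vehicle and suspended AT-0174 cells. In suspension 2 fell and 1 rose, where 10.8% of all genes fell and 10.4% rose. With AT-0174 in suspension 4 fell and 0 rose, where 0.258% of all genes fell and 0.522% rose. Against attached cells 11 fell and 0 rose, where 11.8% of all genes fell and 12.2% rose. All 14 interferon-induced genes tested had a lower fitted level with AT-0174 than with either vehicle. *BST2* lay nearest 0, at -0.02 and -0.08, and the AT-0174 libraries of *MX1* overlapped both vehicle groups. *IFI44L* was at 0 in all AT-0174 libraries, and setting it to the limit of 3 counts per library left both AT-0174 medians as they were.

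*IFI6* stood at 19, 30.2 and 17.2 CPM attached, at 19.1, 19.1 and 18 CPM in suspended vehicle and at 6.15, 7.62 and 7.64 CPM in suspended AT-0174, and fell by 1.39 on the log2 scale with AT-0174 in suspension (adjusted p = 0.00173), a call that held in all 6 refits without 1 library. *IFIT1* stood at 9.18, 21.7 and 8.42 CPM, at 7.18, 7.32 and 3.87 CPM and at 1.53, 1.19 and 1.86 CPM, and fell by 1.99 with AT-0174 in suspension (adjusted p = 0.0355). *IFIT2* fell there by 1.24 (adjusted p = 0.0424) and *OAS2* by 3.00 (adjusted p = 0.0103). Of the 6 refits without 1 library, *IFIT1* kept its call in 1, *IFIT2* in 0 and *OAS2* in 4. Against attached cells the AT-0174 values were -1.63 for *IFI6*, -3.09 for *IFIT1*, -2.00 for *IFIT2* and -3.82 for *OAS2*, with adjusted p of 7.5e-05 to 0.000209, and all 4 calls held in each refit. In suspension without drug *IFIT1* fell by 1.09 (adjusted p = 0.0318), *IFIT2* fell by 0.76 (adjusted p = 0.0335) and *GBP2* rose by 0.27 (adjusted p = 0.0269), calls that each held in 2 of the 6 refits. The members ran from -0.56 to 0.00 with AT-0174 in suspension, with a median of -0.23. The 4 called genes lay further from 0, but they were picked by passing the threshold. Over all 14 interferon-induced genes tested the median was -1.10 and the value nearest 0 was -0.02 (*BST2*), so the ranges overlapped. The difference between the lists was not tested.

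Attached replicate 2 was the highest of the 9 libraries in *IFI6*, *IFIT1*, *IFIT2*, *OAS2*, *IRF9* and *IRF1*. It was also the highest in *HLA-B*, *HLA-C*, *HLA-E*, *NLRC5* and, by a narrow margin, *TAP1*. Other members did not share this. *B2M* was highest in attached replicate 1, and *PSMB8* and *PSMB9* in attached replicate 3. In *TAP2*, attached replicate 2 was the lowest of the vehicle libraries, at 17.8 CPM. *GBP2* was highest in suspended vehicle replicate 1. Without attached replicate 2, the changes in suspension were -0.52 for *IFIT1* (adjusted p = 0.14), -0.35 for *IFIT2* (adjusted p = 0.108), -0.50 for *IRF1* (adjusted p = 0.054) and -0.74 for *IRF9* (adjusted p = 0.012). Between attached vehicle and suspended AT-0174 cells without it, 5 of the 9 members passed, with *HLA-B* at -0.48. In that refit 3276 of 15805 genes passed in either direction. Attached replicate 2 is in neither group of the AT-0174 against suspended vehicle comparison. It did enter the estimate of spread that all 9 libraries share in the main fit. A fit of only the 6 libraries of that comparison was among the alternatives.

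**Figure D5:**
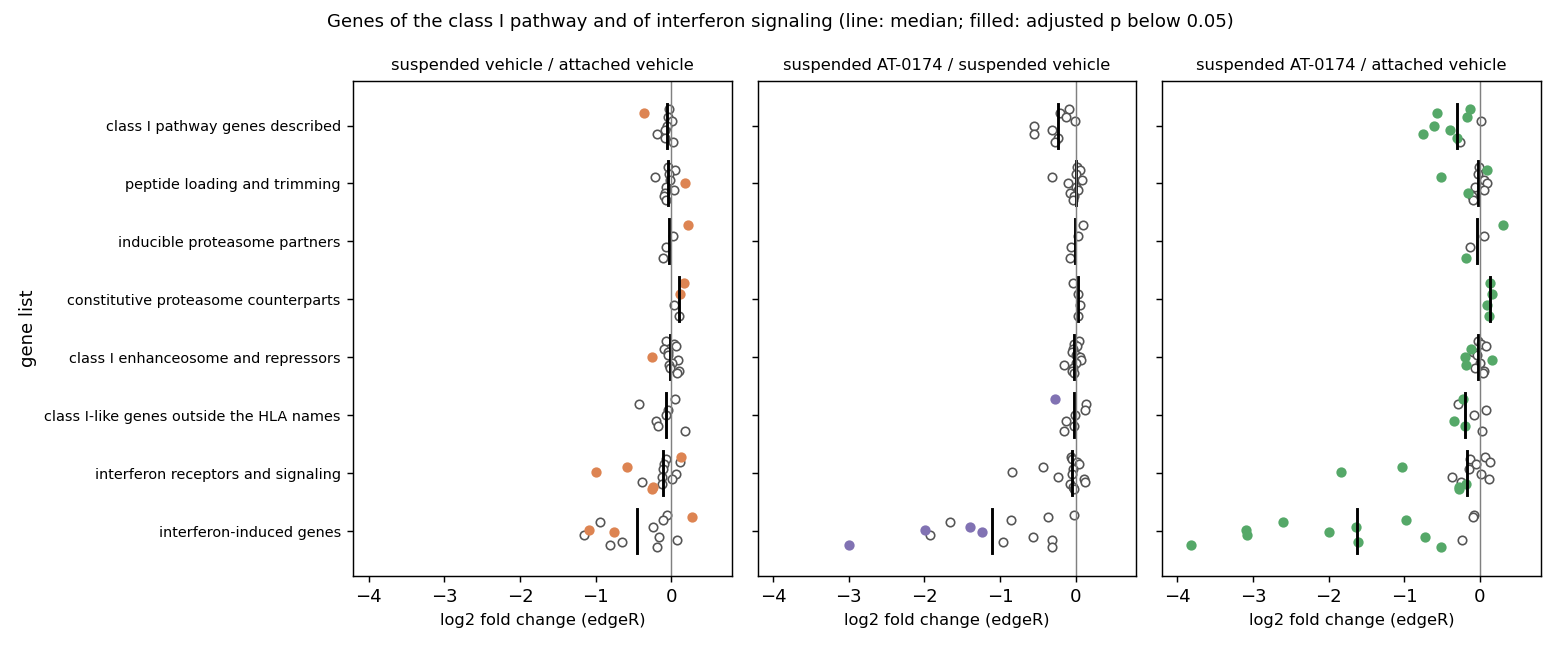
Log2 fold change of each tested gene (points, filled at an adjusted p below 0.05) by list in the 3 comparisons, with a line at the median of each list; *IFI44L* enters the median but is not drawn, as its level with AT-0174 is 0. The interferon-induced genes lie at or below 0 in both AT-0174 panels, with medians of -1.10 and -1.63, and the 9 class I pathway genes have medians of -0.23 and -0.31.

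The joint level of the members, as the mean of their standardized log2 CPM, was 0.4, 1.06 and 0.57 in the attached, 0.52, -0.07 and 0.41 in the suspended vehicle and -0.66, -1.09 and -1.15 in the suspended AT-0174 libraries. Of 12443 genes with at least 50 counts on average and outside the lists, *USP11* (Pearson r = 0.966 over the 9 libraries), *MAN1A1* (0.956), *FAM120C* (0.941), *NCAM2* (0.937) and *OAF* (0.934) followed that level most closely. The 9 libraries share 3 conditions, and the highest of many correlations is large by selection, so these values only describe a like pattern. *USP11*, a deubiquitinase, stood at 73.9 ± 0.506 CPM attached (SD, n = 3), 72.7 ± 0.777 CPM in suspended vehicle and 67.8 ± 1.98 CPM in suspended AT-0174.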

How the data were processed

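RNA was sequenced from 9 libraries of MDA-MB-453 cells, 3 per condition, described as biological triplicates. Per the methods, the authors trimmed reads with Cutadapt 3.4 in Trim Galore 0.6.7, aligned them with STAR 2.7.9a to GRCh38 and quantified them with Salmon 1.10.1, and the deposited gene table holds the resulting estimated counts, not normalized. The methods name a different library kit (Universal Plus mRNA) from the labels (SMARTER). The deposited TPM values of transcripts, made by the authors with Salmon, were summed by gene and used for levels and 1 alternative. Reads were counted against reference alleles.

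Estimated counts were rounded to whole numbers, filtered with filterByExpr, scaled by TMM and tested with the quasi-likelihood test of edgeR 4.0.16 (R 4.3.3) in 1 fit of all 9 libraries, with the condition as the only term and Benjamini–Hochberg adjustment over all 15528 genes tested. Genes with an adjusted p below 0.05 are said to rise or fall. CPM uses TMM-scaled library sizes. The procedure was tested on simulated data. The members and lists were chosen with earlier results of these data known. Of the other lists, genes past the threshold are named (at most 4 per list and comparison, smallest p first), and so are *PSMB5*, *PSMB6*, *PSMB10*, *TAPBP*, *IRF1*, *CIITA* and *PSMB8-AS1*. Some listed genes are not reported here by name. The alternatives were DESeq2 1.42.0 and its size factors, limma-voom (limma 3.58.1), other count filters, the 6 libraries of a comparison alone, a replicate block, counts rebuilt from TPM, a threshold of 0.01, each library left out, summed class I genes and protein-coding transcripts alone, which for *HLA-B*, *HLA-C*, *HLA-E*, *B2M* and *NLRC5* was added after the data were seen, as was *TAP2* with its readthrough gene.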

Additional observations from a re-analysis of the deposited data

How the results depend on the processing

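The count of members called in suspension was 1 and became 0 with counts rebuilt from TPM and at a threshold of 0.01, and ranged from 0 to 1 with a library left out. For AT-0174 against suspended vehicle it was 0, became 1 with DESeq2 (*HLA-C*) and 1 with no filter on low counts (*TAP2*), and ranged from 0 to 0 with a library left out. For AT-0174 against attached vehicle it was 7, became 3 at a threshold of 0.01 (*HLA-B*, *HLA-C* and *TAP1*), was 6 with DESeq2, and ranged from 4 (without AT-0174 replicate 2) to 6 with a library left out. DESeq2 called 3530 of all 15528 genes in that comparison, and the share of all genes at 0.01 is not given here. At 0.05, *HLA-B*, *HLA-C*, *TAP1* and *PSMB8* were called under every alternative run, and *TAP2* became called under 3 (lowest adjusted p = 0.00176). Rebuilding counts from TPM lowered the calls over all genes from 3297 to 1396, from 121 to 31 and from 3724 to 1802 in the 3 comparisons, DESeq2 gave 239 and no filter 499 calls for AT-0174 against suspended vehicle, and leaving out a library gave 1935 to 2693, 63 to 86 and 2239 to 3276; the cause was not tested.

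No sign of pairing by replicate number was seen. Same-numbered libraries correlated between -0.065 and 0.053 in their deviations from the group means, and differently numbered ones between -0.086 and 0.089. With 3 libraries per condition, this cannot show that the replicates were set up apart. With a replicate block 1, 0 and 6 members were called, where 3250, 146 and 3677 of all 15528 genes were. *NLRC5* was lost in the last comparison (adjusted p = 0.0568), and no other call of a member changed.

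The direction turned only in *HLA-E*, *TAP2* and *NLRC5*, none of which passed the test in the comparison concerned as reported. In suspension, *HLA-E* ranged from -0.0046 to 0.0394 with a library left out and was -0.0469 as the class I sum, *TAP2* ranged from -0.0666 to 0.069 with a library left out and was -0.102 with counts rebuilt from TPM and -0.0359 with the readthrough gene, and *NLRC5* ranged from -0.2154 to 0.0702 with a library left out and was 0.307 with protein-coding transcripts alone. For AT-0174 against suspended vehicle, *HLA-E* was 0.0022 with no filter and 0.0162 with counts rebuilt from TPM, and ranged from -0.0222 to 0.0064 with a library left out. Against attached cells *HLA-E* ranged from -0.0077 to 0.0364 with a library left out, and was -0.153 as the class I sum and -1e-04 with protein-coding transcripts alone. *PSMB9* and *NLRC5*, at about 1 to 3 CPM, lost their calls against attached cells under 9 alternatives each, *B2M* under 5 and *PSMB8* only at the threshold of 0.01.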

Other observations

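Interferon ligands and class II genes were also read in these libraries. Of 6 interferon ligand genes none passed the filter: *IFNL1* had at most 6 counts, *IFNB1* at most 1, and *IFNG*, *IFNA1*, *IFNE* and *IFNK* had 0 in every library, which allows up to 3 counts. *CIITA*, the class II counterpart of *NLRC5*, stood at 0.111 to 0.296 CPM with log2 fold changes of 0.02 (SE 0.487), 0.02 (SE 0.471) and 0.04 (SE 0.481). *CD74* had at most 2 counts, and *HLA-DRA* and *HLA-DPA1* had 0 in every library. *HLA-DMB*, a class II peptide editor, fell by 1.18 on the log2 scale in suspension (SE 0.349, adjusted p = 0.0307), from 28 to 45 estimated counts in attached to 13.7 to 20 in suspended vehicle libraries, a call that held in 1 of the 6 refits without 1 library.

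Among 7 tested class I-like genes outside the HLA names, *AZGP1*, which encodes a secreted lipid-binding protein with a class I fold, was the 1 that fell with AT-0174 in suspension, by 0.28 on the log2 scale (SE 0.0448, adjusted p = 0.0111). It stood at 384, 338 and 366 CPM in suspended vehicle and at 303, 291 and 305 CPM in suspended AT-0174, and those groups did not overlap. Of all genes, 0.258% fell and 7.66% were lower without overlap in that comparison. The call of *AZGP1* was lost without suspended vehicle replicate 3 or AT-0174 replicate 2, with an adjusted p of up to 0.0591. Between attached vehicle and suspended AT-0174 cells, *AZGP1* fell by 0.22 (adjusted p = 0.00409), *MICB*, a stress-induced ligand of natural killer cells, by 0.34 (adjusted p = 0.00472) and *MR1*, which presents vitamin metabolites, by 0.19 (adjusted p = 0.0456), of which the call of *MR1* held in 1 of the 6 refits without 1 library and the others in all 6.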
